A study of Mus musculus with 16 samples.

Results

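The 9 genes described here encode 5 fatty acid transport proteins, Slc27a1 to Slc27a5, and 4 long-chain acyl-CoA synthetases, Acsl3 to Acsl6. They were chosen by name, as every probe set on the array whose annotation gave exactly 1 of these symbols, which yielded 15 of 45101 probe sets and 9 of 18194 named genes. RNA came from interscapular brown adipose tissue (BAT) and subcutaneous white adipose tissue (sWAT) of untreated LACA mice on standard chow, labelled male, of an age that was not given in the sources used here. The methods describe 4 mice with both depots taken from each. Each tissue had 4 replicates with 2 Affymetrix mouse genome arrays apiece, 1 labelled biological and 1 technical, and the 2 arrays of a replicate were averaged here. Nothing in the labels ties a BAT and an sWAT sample to 1 animal. Nor do they say that the 4 numbered samples of a tissue came from separate animals. The p-values thus measure the spread of the differences between same-numbered samples, which is not known to be a spread between animals.

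A long-chain fatty acid that enters a cell is of no metabolic use until it is joined to coenzyme A, a step that consumes ATP and traps the fatty acid inside. Acyl-CoA synthetases of the Acsl family carry out this activation, and the Slc27a proteins promote uptake while being acyl-CoA synthetases themselves, mainly for very long chains or bile acids. The resulting acyl-CoA is burned in mitochondria, which is the main fuel of heat production in brown fat, or stored as triglyceride, which is the main task of white fat. Members of both families differ in where they sit in the cell and in the tissues that use them.

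The values are log2 values, centred by the authors so that every probe set has a median of 0 across the 16 arrays. They show by how much samples differ in 1 gene, but not how abundant a gene is, so no member is ranked by level against another, and whether a member lies near the detection limit cannot be seen. A difference is given as BAT minus sWAT on the log2 scale with its standard error (SE), where 1 means 2-fold. The test was that of limma, blocked on replicate number, with Benjamini-Hochberg adjustment over all 18194 genes or, for single probe sets, over all 45101. For a gene, its probe sets were averaged. Higher and lower RNA in a whole tissue may come from more or fewer cells of a type or from more or less RNA per cell, and these cannot be told apart.

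Several samples stood apart from the rest. On the second array of BAT replicate 1 and the first array of sWAT replicate 3, the mean 5′ minus 3′ difference for the control genes Gapdh and Actb was -3.56 and -4.79 log2 units, against -1.23 to 0.46 on the other arrays. Across probe sets the correlation between the arrays of these replicates was r = 0.51 and 0.34, against 0.85 to 0.92 for the other replicates. Xist, the RNA of the silenced X chromosome of female cells, lay at 5.74 to 6.36 in BAT replicates 1 to 3 and at -0.26 in BAT replicate 4, against -0.27 to -0.11 in sWAT, although all mice are labelled male. The mean of 3 Y-linked genes was -2.33 to -1.98 in BAT replicates 1 to 3 and 0.18 in BAT replicate 4, against 0.20 to 0.39 in sWAT. By these genes, replicates 1 to 3 of BAT and sWAT do not match as samples of the same mice. Across the tissues, the replicate number enters as a term of the fit and in the methods' paired t-test. Where a replicate was left out, the BAT and the sWAT sample of that number were dropped together. High Xist was confined to BAT, so a tissue difference and a sex difference cannot be fully told apart in any member. Only BAT replicate 4 resembled sWAT in these sex-linked genes. All 10 brown adipocyte genes were higher in BAT, with Ucp1 at 7.58 ± 0.49, and so were all 15 genes of skeletal muscle fibres, a tissue that borders on the interscapular depot. Of 5 white adipocyte genes 3 were lower in BAT, and so were all 7 B cell and all 9 T cell genes. These lists were chosen with earlier results of these data known. They hold genes that the paper ranks among the highest of a tissue, such as Ucp1, Myh1 and Ms4a1, so the counts were partly set in advance. Over the muscle genes the mean was 2.04 to 3.78 in BAT and -1.94 to -1.60 in sWAT, and over the B cell genes it was -2.40 to -1.71 in BAT and 2.06 to 2.89 in sWAT.

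The stretches of DNA shown here lie before the start of Slc27a2, which had by far the widest difference, and of Acsl6, the other gene that a search for nuclear receptor half-sites marked. Each is the run of 250 bases before a RefSeq start site on GRCm38.p6, on the plus strand at chr2:126552774-126553023 and chr11:54303574-54303823. Capitals mark the half-site of nuclear receptors, AGGTCA, in either orientation.
Slc27a2: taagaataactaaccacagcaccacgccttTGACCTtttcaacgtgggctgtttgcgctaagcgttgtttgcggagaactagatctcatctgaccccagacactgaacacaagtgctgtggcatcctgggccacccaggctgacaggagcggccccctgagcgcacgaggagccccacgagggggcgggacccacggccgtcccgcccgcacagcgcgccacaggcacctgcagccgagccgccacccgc
Acsl6: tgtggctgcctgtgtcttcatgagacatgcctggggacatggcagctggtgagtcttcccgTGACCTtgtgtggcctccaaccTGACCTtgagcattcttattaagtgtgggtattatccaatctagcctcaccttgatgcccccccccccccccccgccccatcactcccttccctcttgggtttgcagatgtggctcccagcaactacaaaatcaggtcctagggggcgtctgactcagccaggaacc

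RefSeq start sites were at hand for 8 of the 9 genes in 12 windows. The half-site was found in 2 of the 12 windows and in 14.0% of all 32851 windows. The other windows of Acsl6, which begin at chr11:54303954 and chr11:54314653, held no half-site. Where found, it began 220 bases before the start of Slc27a2, and 189 and 167 bases before the Acsl6 start used above. The second of these in Acsl6 is part of the extended half-site TCAAGGTCA, which 0.387% of all windows hold. The half-site repeated in the same direction with any 1 base between, the form bound by the fatty acid receptors of the PPAR family, was in none of the 12 windows and in 0.0335% of all windows. Neither did any hold TATAAA (12.4% of all windows), while 10 of 12 held the GC box GGGCGG (32.7% of all) and 7 of 12 CCAAT (33.8% of all), all counted on both strands with overlaps allowed. A match describes the letters and does not show that a factor binds there.

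Of the 9 members, 5 were higher in BAT and 0 were lower, where 21.0% of all genes were called higher, 17.5% lower and 38.4% in either direction. The 5 were Slc27a2, Acsl5, Slc27a1, Acsl6 and Slc27a4. The methods' paired t-test called Slc27a2 alone, with an adjusted p of 0.094 for Slc27a1, 0.14 for Acsl5, 0.086 for Acsl6 and 0.12 for Slc27a4, where it called 19.6% of all genes. Scaling to the 3′ probe sets of Gapdh and Actb ended the calls of Acsl6 (0.71, adjusted p = 0.096) and Slc27a4 (0.48, adjusted p = 0.34). Neither difference shrank, but under this scaling every member gene had the same SE, 0.31, also the median SE over all genes. A call there thus depended on the size of the difference alone. Of the 5 genes called in the main fit, 2 reached a 2-fold difference, Slc27a2 and Acsl5. Among all genes, 7.13% were called and at least 2-fold higher. The median difference of the 9 was 0.55, against 0.15 over all genes. In 4 of the 9 every BAT replicate lay above every sWAT replicate, as in 28.0% of all genes, and these were Slc27a2, Slc27a4, Acsl3 and Acsl6. The opposite order, found in 17.4% of all genes, was seen in 0 of the 9. At the level of probe sets 6 of 15 were higher in BAT and 0 lower, where 15.1% of all probe sets were called higher, 17.3% lower and 32.4% in either direction. Of the 15, 5 were called and at least 2-fold higher (6.10% of all). The BAT replicates lay above those of sWAT without overlap in 6 (23.2% of all) and below in 0 (17.7% of all). Leaving out replicate 1 or 2 left 2 of the 9 genes called, Slc27a1 and Slc27a2. Leaving out replicate 3 left these and Acsl6, and leaving out replicate 4 left them with Acsl6 and Acsl5, while omitting the arrays of low 5′ signal gave 6 called genes, which also included Acsl3.

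**Figure D1:**
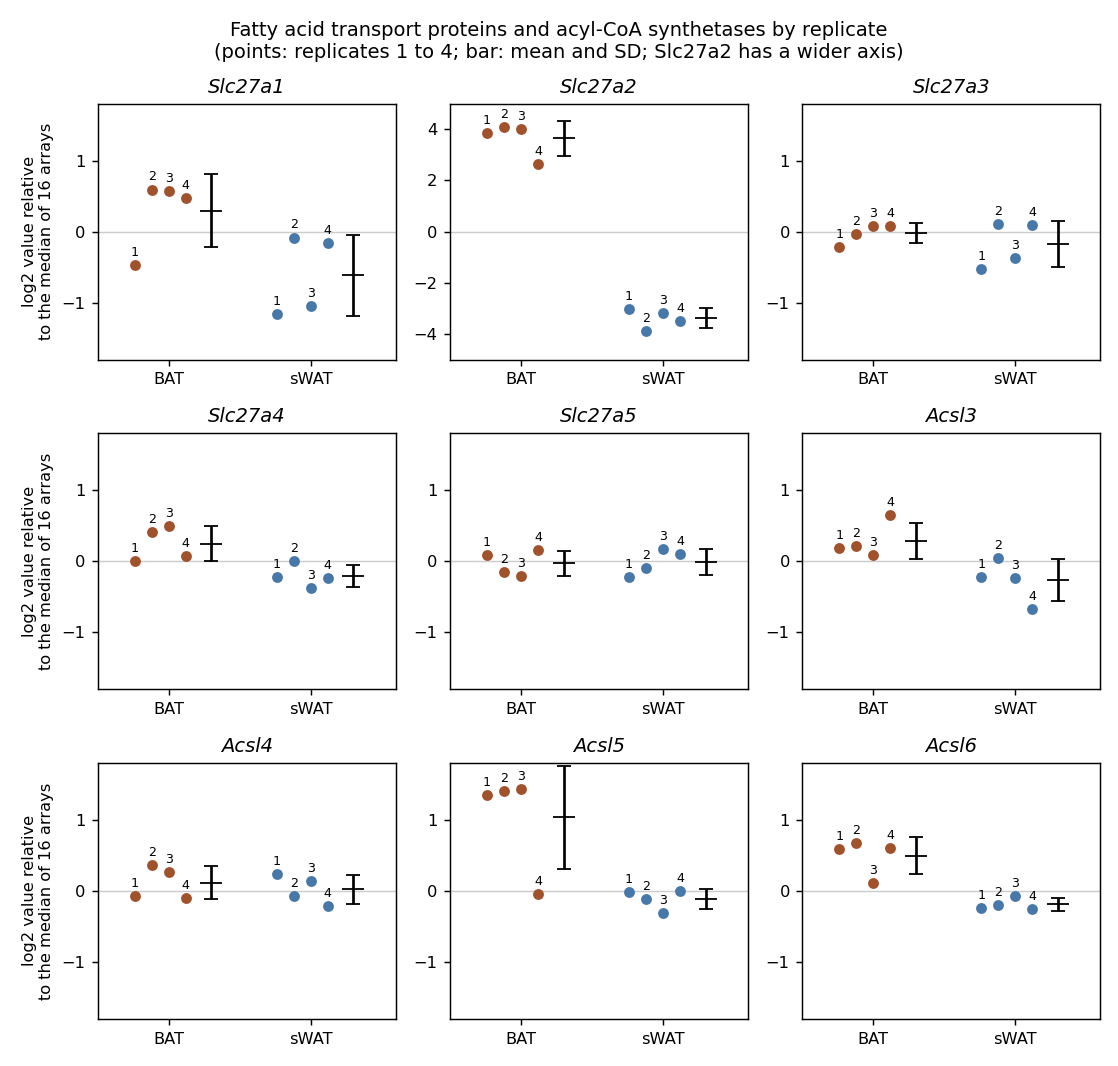
Log2 value of each member in replicates 1 to 4 of BAT and sWAT, relative to the median of the 16 arrays, with the mean and SD of the 4 beside them (y axis in log2 units, wider for Slc27a2). Slc27a2 has no overlap between the tissues, Acsl5 has 3 BAT replicates between 1.35 and 1.43 and BAT replicate 4 at -0.05, and Slc27a3, Slc27a5 and Acsl4 mix.

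Among the transporters, Slc27a2 encodes the very long-chain acyl-CoA synthetase of peroxisomes and endoplasmic reticulum, best known from liver and kidney. It stood at 3.83, 4.08, 4.0 and 2.65 in BAT replicates 1 to 4, against -3.01, -3.89, -3.17 and -3.47 in sWAT. All BAT replicates were thus at least 5.65 log2 units above the highest sWAT replicate, and BAT replicate 4 was the lowest of the 4. The difference was 7.02 ± 0.27 (adjusted p = 2.2e-05), 130.2-fold with a 95% interval from 83.0 to 204.2. By the mean over the probe sets of a gene, only 1 of all 18194 genes, Ucp1, had a wider difference towards BAT. Slc27a2, with 1 probe set, ranked 2 by this measure. In the paper's list of genes highest in BAT, Myh1 and Fabp3 also stand above Slc27a2. With each replicate left out in turn the difference was 6.71 to 7.33, and omitting the arrays of low 5′ signal gave 7.13. Of the 10 brown adipocyte genes, 8 were also lowest in BAT replicate 4, but not Cidea and Ebf2, and the mean of the list was 1.58 there and 2.84 to 2.96 in replicates 1 to 3 of BAT. Of the 15 muscle fibre genes 12 were highest in BAT replicate 4, but not Myot, Myh1 and Myh2, with a list mean of 3.78 there and 2.04 to 3.09 in the rest of BAT. What part either had in the value of Slc27a2 was not tested.

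Slc27a1 encodes the insulin-responsive transport protein of muscle and fat. Its values were -0.47, 0.59, 0.57 and 0.48 in BAT, against -1.16, -0.08, -1.05 and -0.17 in sWAT. BAT replicate 1 lay below sWAT replicates 2 and 4, so the tissues overlapped, while the other BAT replicates lay above all of sWAT. The difference was 0.91 ± 0.19 (adjusted p = 0.0094), or 1.87-fold. Without the replicate block its SE was 0.32 (adjusted p = 0.042). Its probe sets 1422811_at and 1435658_at gave 1.10 ± 0.19 (adjusted p = 0.0045) and 0.72 ± 0.22 (adjusted p = 0.042). The call of 1435658_at ended without the replicate block (adjusted p = 0.12) and without any 1 of the 4 replicates, at 0.45 without replicate 3 and 0.78 to 0.84 without another. Low values were found on the arrays of low 5′ signal. Slc27a1 was -1.23 on that array of BAT replicate 1 and 0.28 on the other, and -1.99 on that array of sWAT replicate 3 and -0.11 on the other. On sWAT replicate 1, whose 5′ signal was not low, both arrays were low too, at -1.35 and -0.97. With the arrays of low 5′ signal left out, the difference was 0.86 (adjusted p = 0.0044), and on the second arrays alone it was 0.39 and did not pass (adjusted p = 0.15). Muscle fibre genes were also higher in BAT, and their part in the difference of Slc27a1 was not tested.

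Slc27a4, the transporter known for fatty acid uptake in the small intestine and for the skin barrier, showed a small difference. It had 0.01, 0.42, 0.50 and 0.07 in BAT, against -0.22, 0.00, -0.37 and -0.23 in sWAT. The lowest BAT value lay 0.0081 above the highest sWAT value, so the tissues barely separated. At 0.45 ± 0.14 (1.37-fold) it passed among genes (adjusted p = 0.044) but not among probe sets (adjusted p = 0.063). Leaving out any 1 of the 4 replicates ended the call, with differences of 0.31 to 0.53. Scaling each array to a median of 0 ended it as well, at 0.39 (adjusted p = 0.097), whereas without the arrays of low 5′ signal it was 0.57 (adjusted p = 0.0091).

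The other transporters did not pass the test. Slc27a3, an acyl-CoA synthetase with little transport activity, had -0.21, -0.03, 0.08 and 0.08 in BAT, against -0.53, 0.10, -0.37 and 0.10 in sWAT. Slc27a5, the bile acid-CoA ligase of liver, had 0.08, -0.15, -0.20 and 0.15 in BAT, against -0.22, -0.10, 0.17 and 0.11 in sWAT. For both genes the tissues overlapped. The difference of Slc27a3 was 0.15 ± 0.14 (adjusted p = 0.40), with a 95% interval of -0.18 to 0.49. That of Slc27a5 was -0.02 ± 0.14 (adjusted p = 0.92), with an interval of -0.35 to 0.32. These intervals leave room for a change of up to 1.40-fold in Slc27a3 and 1.25-fold in Slc27a5 towards BAT. Centred values do not show whether either gene was above background.

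**Figure D2:**
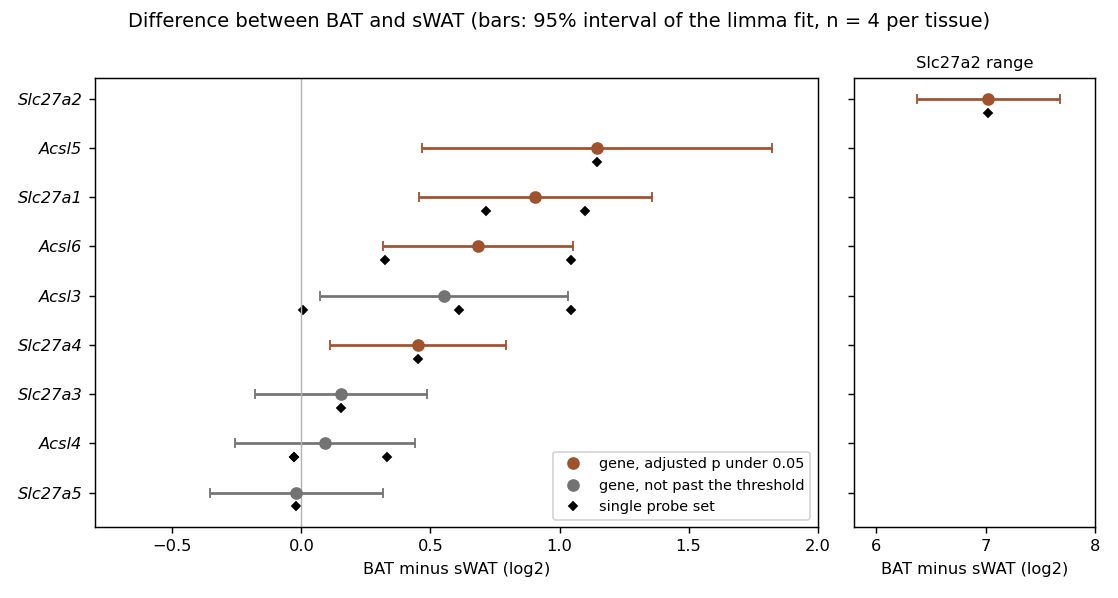
BAT minus sWAT for each member gene in log2 units (x axis), with the 95% interval of the limma fit from 4 replicates per tissue (circles) and the values of single probe sets (diamonds). Slc27a2 lies at 7.02 on an axis of its own, the other genes lie between -0.02 and 1.15, and the probe sets of Acsl3 run from 0.00 to 1.05.

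Among the synthetases, Acsl5 is found on mitochondria and endoplasmic reticulum and is best known from intestine and liver. It stood at 1.35, 1.40, 1.43 and -0.05 in BAT, against -0.01, -0.11, -0.31 and 0.00 in sWAT. BAT replicates 1 to 3 lay close together and well above sWAT, while both arrays of BAT replicate 4 (-0.06 and -0.04) lay inside the sWAT range. The difference over all 4 was 1.15 ± 0.29 (adjusted p = 0.019), or 2.21-fold. Without replicate 4 of both tissues it was 1.54 (adjusted p = 0.00072), and leaving out replicate 1, 2 or 3 of both ended the call at 0.95 to 1.07. A rule shaped on these values was met by 8 of 18194 genes, Acsl5 included. It asked that BAT replicates 1 to 3 all be at least 2-fold above every sWAT replicate, with BAT replicate 4 in the sWAT range. Among the 8 were Xist, the glycogen synthase gene Gys2, the macrophage receptor gene Cd163 and Apmap, a membrane protein gene of adipocytes. The other 6 macrophage genes were highest of BAT in replicate 4, with a mean over all 7 of 0.46 there and -1.03 to -0.15 in BAT replicates 1 to 3, against -0.05 to 0.63 in sWAT. The same count with BAT replicate 1 as the odd one was 5, and with replicate 2 or 3 it was 0. The rule leaves out genes that dropped in BAT replicate 4 but stayed above sWAT. Elovl3 read 0.10 there and 5.89 to 6.86 in BAT replicates 1 to 3, against -0.89 to -0.11 in sWAT. Of the 10 brown adipocyte genes, 8 were lowest in BAT replicate 4, but not Cidea and Ebf2, so a low value there was not particular to Acsl5. This pattern and these names were picked after the values were seen.

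In the same replicate 4 of 5 white adipocyte genes were the highest of BAT, but not Hoxc10. The mean of the 5 white adipocyte genes was 0.10 there and ranged over -1.62 to -1.31 in BAT replicates 1 to 3, against 0.46 to 0.65 in sWAT. BAT replicate 4 was also the BAT sample without high Xist. Whether the level of Acsl5 there goes with sex-linked expression, with the make-up of the sample or with neither was not tested.

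Acsl6 is a synthetase best known from brain and testis and handles polyunsaturated fatty acids. Its values were 0.59, 0.67, 0.11 and 0.60 in BAT, against -0.24, -0.20, -0.07 and -0.26 in sWAT. All BAT replicates were higher than all sWAT replicates, and BAT replicate 3 was the lowest of BAT. The difference was 0.68 ± 0.16 (adjusted p = 0.013), or 1.61-fold. It came mainly from probe set 1451257_at, with 1.09, 1.08, 0.18 and 0.88 in BAT, against -0.33, -0.31, 0.00 and -0.31 in sWAT, and a difference of 1.04 ± 0.23 (adjusted p = 0.013). Probe set 1437031_at gave 0.33 ± 0.13 (adjusted p = 0.10), and in both the tissues did not overlap. Over the muscle fibre genes the BAT replicates had means of 2.19, 3.09, 2.04 and 3.78. BAT replicate 3 was lowest there too, but close to replicate 1, in which Acsl6 was not low. BAT replicate 4 was highest over the muscle genes but not in Acsl6. The part of muscle RNA in the difference of Acsl6 was not tested. The call ended without replicate 1 (0.64, adjusted p = 0.053) or 2 (0.62, adjusted p = 0.066).

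Acsl3 belongs to the endoplasmic reticulum and to forming lipid droplets. It had 0.19, 0.21, 0.08 and 0.66 in BAT, against -0.22, 0.05, -0.23 and -0.67 in sWAT. The tissues did not overlap, by a margin of 0.04, and replicate 4 was the highest of BAT and the lowest of sWAT. At 0.55 ± 0.20 the gene did not pass (adjusted p = 0.069) except without the replicate block (adjusted p = 0.028), on the second arrays, without the arrays of low 5′ signal or with its probe set of largest SD, with a 95% interval of 0.07 to 1.03 before adjustment. The 3 probe sets disagreed, although the annotation gives the same transcript for all. Probe set 1452771_s_at was 2.06-fold higher in BAT (1.05 ± 0.21, adjusted p = 0.0095), with 0.47, 0.48, 0.16 and 0.62 in BAT, against -0.57, -0.13, -0.58 and -1.18 in sWAT. Probe set 1428386_at had 0.61 ± 0.23 (adjusted p = 0.087), and 1428387_at had 0.00 ± 0.19 (adjusted p = 0.99). For 1428387_at, BAT replicate 4 read 0.62 and the other BAT replicates -0.05 to 0.00, against -0.04 to 0.31 in sWAT. The suffix _s_at marks a set whose probes may match more than 1 transcript, and no probe sequences were used here.

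Acsl4 prefers arachidonic acid and other polyunsaturated fatty acids, and is known for its role in ferroptosis. It had -0.07, 0.36, 0.27 and -0.10 in BAT, against 0.24, -0.07, 0.14 and -0.21 in sWAT. The tissues overlapped widely and the gene did not pass, at 0.09 ± 0.15 (adjusted p = 0.63, 95% interval -0.26 to 0.44). Its 3 probe sets gave 0.33, -0.03 and -0.03, and 0 of 3 passed. On the array of low 5′ signal of sWAT replicate 3, probe set 1418911_s_at was at -1.10 while 1433531_at and 1451828_a_at were at 1.14 and 1.001. On the other array of that replicate the 3 lay between -0.16 and 0.02.

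**Figure D3:**
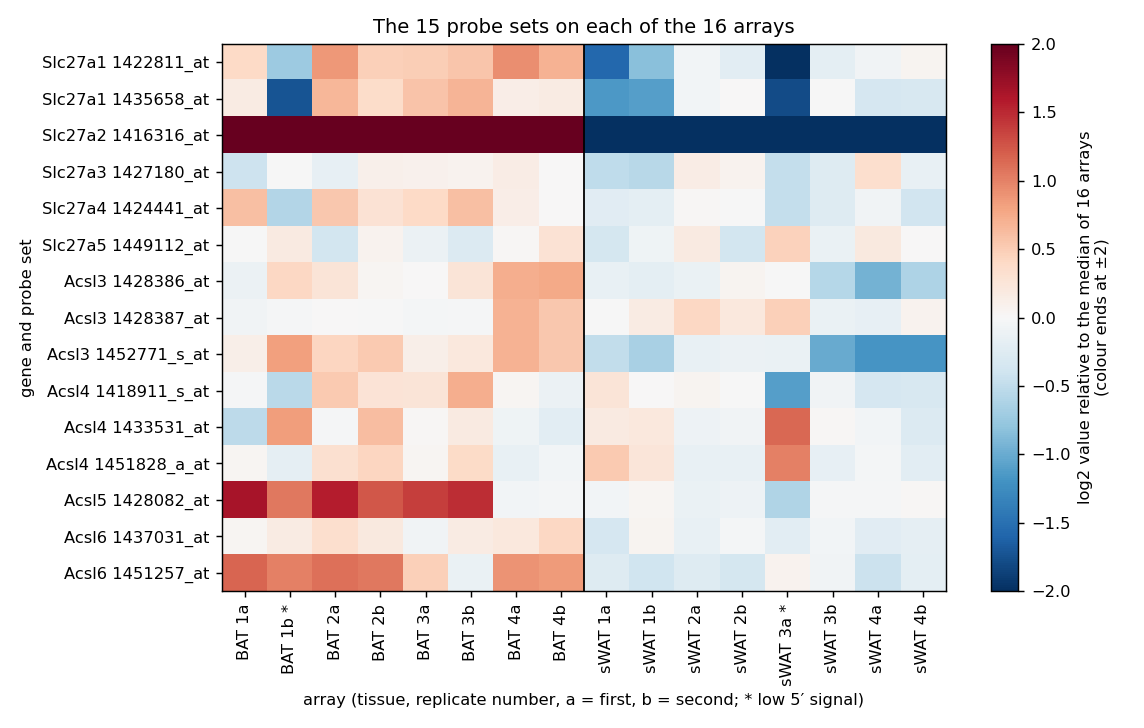
The 15 probe sets (y axis) on each of the 16 arrays (x axis, BAT left of sWAT, a and b being the first and second array of a replicate), coloured by log2 value relative to the probe set's median, with colour ending at 2 in both directions. Slc27a1 is low on the arrays of low 5′ signal and on both arrays of sWAT replicate 1, and Acsl5 is near 0 on both arrays of BAT replicate 4.

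In the order of their differences Slc27a2 stood alone, since its 95% interval (6.38 to 7.67) was far above that of any other member, the highest being that of Acsl5 (0.47 to 1.83). From Acsl5 through Slc27a1, Acsl6, Acsl3, Slc27a4, Slc27a3 and Acsl4 to Slc27a5, the 95% intervals of neighbours overlapped. The order of neighbours was thus not set apart from the spread between replicates. The intervals of Acsl5 and Slc27a1 (0.46 to 1.36) did lie above those of Acsl4 (-0.26 to 0.44) and Slc27a5 (-0.35 to 0.32). The 2 arrays of a replicate differed by a median of 0.09 to 0.26 among the members. The widest gaps between 2 arrays were those of Slc27a1 in sWAT replicate 3 (1.88) and BAT replicate 1 (1.51), the replicates with an array of low 5′ signal. In the replicates without such an array the widest gap was 0.68, that of Slc27a2 in sWAT replicate 4.

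The genes whose values over the 8 replicates lay closest to a member were found by the root mean square difference. For Slc27a2 these were Myot, a protein gene of the muscle Z-disc (0.80 log2 units), Ucp1, the uncoupling protein of brown fat (0.84), and Myh2, a myosin heavy chain (0.89). Myot, Ucp1 and Myh2 were thus about equally near, and all 3 remained the nearest without the arrays of low 5′ signal. Only genes with a tissue difference of similar size can lie near by this measure. Myot and Myh2 are outside the 12 of 15 muscle fibre genes that were highest in BAT replicate 4, where Slc27a2 was lowest of BAT. For Acsl5 the nearest were Sgk2, Xrcc3 and Gnmt (0.22 to 0.23), and 0 of these 3 stayed nearest without those arrays. The nearest gene to Acsl6 was Tmem52 (0.075), which stayed among the nearest. Between members the closest were Slc27a4 and Acsl4, at 0.27.

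Other genes of fatty acid handling were taken from lists of the pathway, with 61 genes measured. In the list of other acyl-CoA synthetases 6 of 12 were higher in BAT and 1 was lower, with a median difference of 0.56, close to that of the members. Acsl1 was listed but not measured, so neither this median nor that of the Acsl members includes it. Acsm3, a medium-chain synthetase of mitochondria, was 7.16-fold higher (2.84 ± 0.26, adjusted p = 3.1e-04), with 0.79 to 1.71 in BAT, against -2.59 to -0.71 in sWAT. Acsf3, the malonyl-CoA synthetase of mitochondria, had 2.12 ± 0.24 (adjusted p = 7.2e-04). Acsbg1, a synthetase known from brain and adrenal gland, was lower in BAT at -0.61 ± 0.16 (adjusted p = 0.020), a call that ended without replicate 2, with the 3′ scaling and by the paired t-test.

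Of the genes of uptake and binding 6 of 20 were higher in BAT, 2 lower and 12 did not pass, with a median of 0.26. Fabp3, a fatty acid binding protein of heart and muscle, was 17.3-fold higher as the mean over its probe sets (4.12 ± 0.16, adjusted p = 2.1e-05). The paper gives a far larger fold change for Fabp3, and its single probe sets were not compared here. Ffar4, a receptor for long-chain fatty acids, had 2.63 ± 0.32. Fabp1 and Fabp7, the binding proteins known from liver and brain, were lower at -1.77 ± 0.18 and -0.74 ± 0.23 (adjusted p = 0.042 for Fabp7). The call of Fabp7 ended without replicate 1, 2 or 3, on the second arrays, under both scalings and by the methods' paired t-test, and its difference was -0.47 without replicate 2. Of the carnitine shuttle, which brings acyl groups into mitochondria, 4 of 6 were higher and 1 lower, with a median of 1.35. Its carrier Slc25a20 had 3.02 ± 0.15 and Cpt2, the inner transferase, 1.72 ± 0.12. Cpt1a, the form of the outer transferase known from liver, was lower in BAT at -1.15 ± 0.20. Cpt1b was on this list too but was not measured.

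Among acyl-CoA thioesterases, which undo the activation, 7 of 10 were higher in BAT and 0 lower, with a median of 0.98. Acot11, a thioesterase of brown fat induced by cold, had 2.97 ± 0.36, where BAT replicate 4 read 0.60 and BAT replicates 1 to 3 read 2.38 to 2.89, against -0.93 to -0.82 in sWAT. Acot13, a thioesterase of mitochondria, had 2.68 ± 0.11. Of the genes that use acyl-CoA for glycerolipid synthesis 9 of 13 were higher and 0 lower, with a median of 0.91. The acyltransferases Agpat3 and Agpat2 had 1.78 ± 0.16 and 1.57 ± 0.38, and Agpat2 overlapped between the tissues, with -0.13 in BAT replicate 4 and 0.09 in sWAT replicate 2, and lost its call without replicate 1 (1.37, adjusted p = 0.079). The medians of the 5 Slc27a and the 4 Acsl members, 0.45 and 0.62, thus lay below those of the shuttle, thioesterase and glycerolipid lists, a difference that was not tested.

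**Figure D4:**
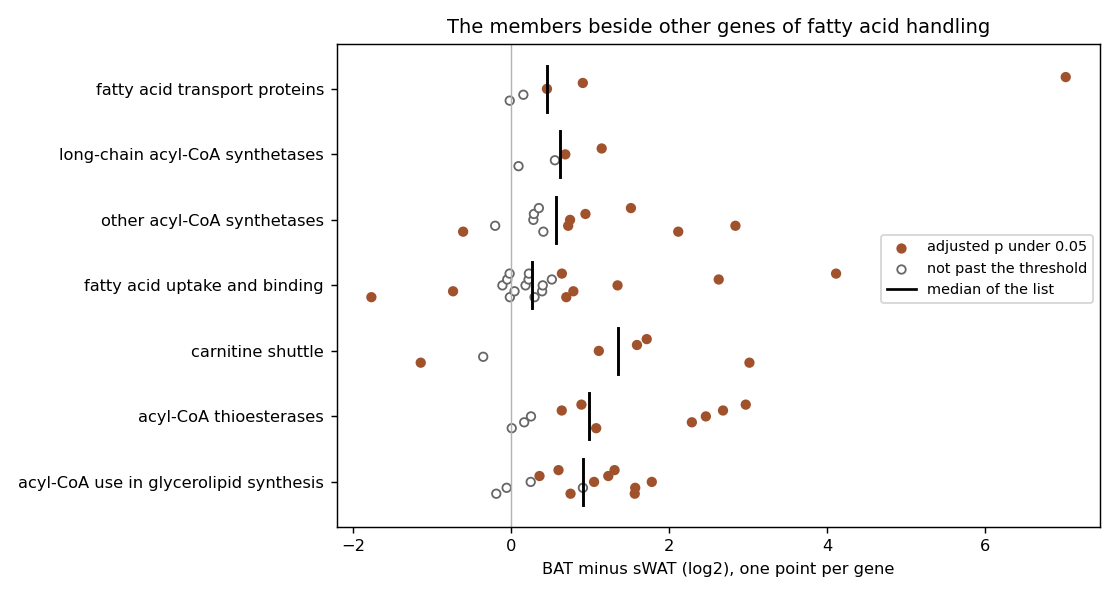
BAT minus sWAT in log2 units (x axis) for each measured gene of the 2 member families and of 5 lists of fatty acid handling (rows), filled where the adjusted p is under 0.05, with a bar at the median. The medians run from 0.26 for uptake and binding to 1.35 for the carnitine shuttle. With the probe sets of each gene averaged, Slc27a2 lies at 7.02, right of every other gene shown.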

How the data were processed

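RNA of BAT and sWAT was hybridized to 16 Affymetrix mouse arrays. The authors processed the scans with RMA and quantile normalization, and the deposited log2 values are relative to the median of their probe set across the arrays. The platform annotation names 34958 probe sets with 1 symbol, 932 with several and 9211 with none. Arrays of a replicate were averaged, then probe sets of a gene. The difference was fitted with limma 3.58.1 (lmFit and eBayes, R 4.3.3), blocked on replicate number as the methods use a paired test, with Benjamini-Hochberg adjustment and a threshold of 0.05, and the fit was tested on simulated data. Promoters were taken from RefSeq on GRCm38.p6, and figures were drawn with matplotlib 3.10.9.

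The members and lists were chosen with earlier results of these data known. Named were all members, the 2 genes of each pathway list with the largest difference in each direction among those that passed, and genes from the 3 nearest to a member. Of the listed pathway genes, 4 had no probe set with their symbol alone and were not measured, namely Acsl1, Acss3, Acsm4 and Cpt1b. An array was called low in 5′ signal where the mean 5′ minus 3′ difference of Gapdh and Actb was under -2 log2 units. Alternatives were no block, either array alone, omission of the arrays of low 5′ signal, the methods' t-test, 2 scalings, the probe set of largest SD and omission of each replicate. Since no signal level is kept, only the number of arrays speaks for the precision.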

Additional observations from a re-analysis of the deposited data

Results flagged for a closer look

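Single replicates stood far from the other 3 of their tissue in 6 of 38 groups of 4 tested among the members and their probe sets, by the gap to the nearest value over the range. Chance flags about 1 in 20 such groups, and the groups share samples and probe sets. Slc27a1 was at -0.47 in BAT replicate 1, against 0.48 to 0.59 in the others, where 1 of the 2 arrays has low 5′ signal. Acsl5 was at -0.048 in BAT replicate 4, against 1.35 to 1.43. Acsl6 was at 0.11 in BAT replicate 3, against 0.59 to 0.67, and its probe set 1451257_at was at 0.00 in sWAT replicate 3, against -0.33 to -0.31. The probe sets 1428386_at and 1428387_at of Acsl3 were highest in BAT replicate 4, at 0.74 against 0.13 to 0.15 and at 0.62 against -0.05 to 0.00.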

How the results depend on the processing

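Without each replicate in turn, 2 to 4 of the member genes (5 in all), 3 to 5 of their probe sets (6) and 29 to 34 of the other pathway genes (36) passed. The methods' paired t-test over 4 pairs called 1 member gene, 1 probe set and 20 pathway genes, and scaling to the 3′ Gapdh and Actb probe sets called 3 member genes. With this scaling every member gene had the same SE, 0.31, so its calls followed the size of the difference alone. Over all genes the calls numbered 6989, 3567 by that t-test, 3771 with this scaling and 4627 without replicate 2. Of the 27 nearest genes, 8 were shared without the arrays of low 5′ signal. Slc27a2 was called under every alternative run, at 6.64 to 7.41. The values near 0 changed sign. Slc27a5 was at 0.21 on the second arrays, 0.032 without the arrays of low 5′ signal, 0.0051 with the 3′ scaling and -0.13 to 0.10 over the left-out replicates. Acsl4 was at -0.076 on the first arrays and -0.021 to 0.22 over the left-out replicates. Its probe set 1433531_at was at 0.39 on the second arrays and -0.17 to 0.12 over the left-out replicates, and 1451828_a_at at 0.21, 0.14 without the arrays of low 5′ signal and -0.21 to 0.12. Acsl3 1428387_at was at -0.034 on the first arrays, -0.057 with each array centred on its median and -0.22 to 0.11 over the left-out replicates. The causes were not tested.

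The fit without the replicate block called Acsl3 as well (0.55, adjusted p = 0.028) and lost no member gene, but lost probe set 1435658_at of Slc27a1 (adjusted p = 0.12), with 8573 calls over all genes. For replicates 1 to 3 the numbers do not pair samples of the same mice, since Xist and Y-linked genes differed between the tissues. In replicate 4 these genes were alike (Xist at -0.26 and -0.27), which does not show that 1 mouse gave both samples. Deviations of same-numbered BAT and sWAT replicates correlated at -0.23, 0.06, -0.35 and 0.23 across probe sets. The highest correlation, 0.52, joined BAT replicate 1 and sWAT replicate 3, which hold the arrays of low 5′ signal. Centred values give no signal over background, so members near the detection limit cannot be told from steady ones.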
